A study of Papio anubis with 25 samples.

Results

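The salivary glands of olive baboons were compared with their livers. For each of 5 animals, the mean log2(TPM + 1) of its parotid, submandibular and sublingual glands was set against the value of its own liver, for all genes. TPM is a transcript level corrected for transcript length and scaled to the same total in each library. These 4 tissues gave 20 of the 25 libraries of the series: 15 from glands and 5 from liver. Baboons 1 to 4 were labelled female and baboon 5 male, the gland samples came from the left side, and all tissue had been flash frozen. No treatment and no age is given in the labels. RNA came from 3 sections of 30 µm per sample, so each library holds whatever cell types lay in those sections.

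Salivary glands are exocrine epithelia: acinar cells release water, salt and protein, ducts modify the fluid, and myoepithelial cells squeeze it out. The parotid is mainly serous, the sublingual mainly mucous, and the submandibular gland is mixed. The liver consists mostly of hepatocytes, which make most plasma proteins, clear nitrogen as urea, release glucose, make bile acids and modify drugs, under a network of transcription factors that includes HNF4A.

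The largest differences lay on the liver side. Of 14867 genes tested, out of 21287 in the table, 1203 were called higher in the glands, or 8.09%, and 2020 were called lower, or 13.6%. A call needed a Benjamini-Hochberg adjusted p under 0.05 in limma over all genes tested and a log2 fold change of at least 1 on the log2(TPM + 1) scale. Among called genes, 598 were lower by a log2 fold change of at least 3, against 15 that were higher by that much. At a log2 fold change of 5 or more there were 237 lower genes and 0 higher ones. The median over all genes tested was -0.004, and it became 0.11 when libraries were rescaled by trimmed means or by median ratios.

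Counts of whole groups apart, which average no glands, also had more genes on the liver side. For 823 genes, or 5.54% of those tested, all 5 livers lay above all 15 gland libraries. For 145 genes, or 0.975%, all 15 gland libraries lay above all 5 livers. After TMM scaling, a rescaling of libraries by trimmed means, these counts were 1077 and 455. The median SD of the 5 within-animal differences was 0.92 for genes called higher, 0.83 for genes called lower and 0.75 over all genes. Standard errors below are limma's, which draw each gene's spread towards that of genes at a similar level.

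**Figure D1:**
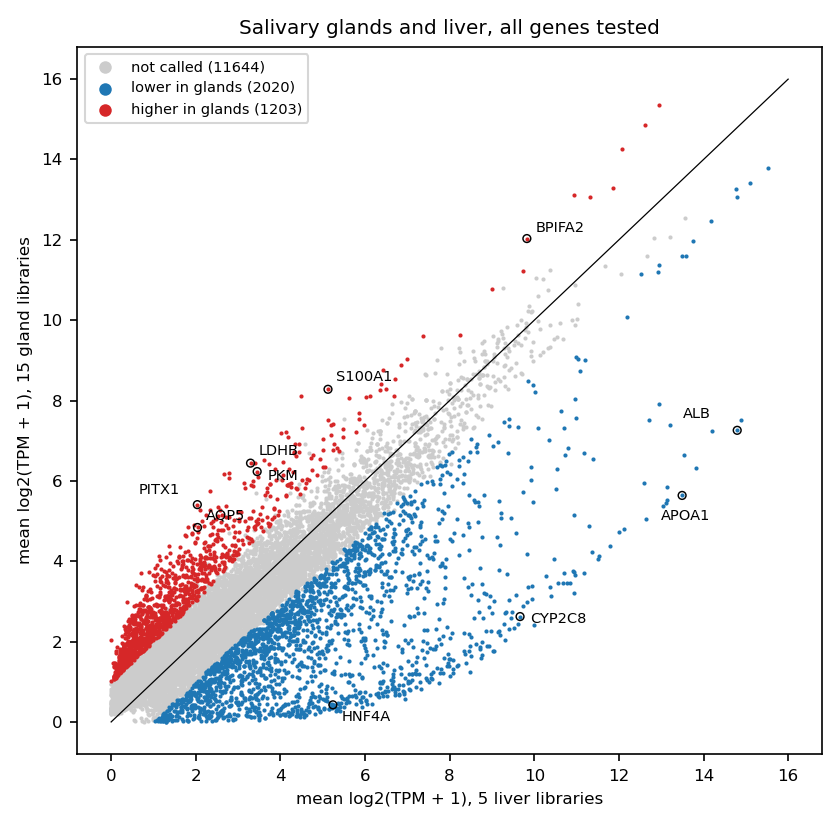
Mean log2(TPM + 1) over the 15 gland libraries (vertical axis) against the 5 livers (horizontal axis), 1 point per gene tested, with equal levels on the diagonal. The 2020 genes called lower in glands (blue) reach much farther from the diagonal than the 1203 called higher (red).

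The tissue labels were checked first against the defining markers AQP5 and PITX1 for salivary gland and ALB and APOA1 for liver. AQP5, the apical water channel of salivary acini, stood at 107, 2.25, 48.3, 53.9 and 3.64 TPM in the parotids of baboons 1 to 5. In the submandibular glands it stood at 88.3, 5.40, 70.8, 54.7 and 61.8 TPM, and in the sublingual glands at 40.5, 2.61, 68.9, 3.78 and 226 TPM. The livers held 3.73, 1.98, 2.49, 3.88 and 3.90 TPM. The groups overlapped: 11 of 15 gland libraries exceeded the highest liver, and the parotids of baboons 2 and 5 and the sublingual glands of baboons 2 and 4 did not. The log2 fold change was 2.80 (SE 0.46, n = 5 animals, limma adjusted p = 2.82e-05), and all 5 animals had the higher value in glands.

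PITX1, a homeodomain factor of the oral and jaw region, stood at 40.8, 3.24, 66.0, 32.2 and 4.08 TPM in the parotids and at 40.8, 25.4, 45.8, 35.5 and 30.9 TPM in the submandibular glands. The sublingual glands held 710, 28.4, 49.9, 271 and 75.3 TPM, and the livers 1.74, 6.06, 2.36, 2.26 and 4.50 TPM. Again the parotids of baboons 2 and 5 lay within the liver range and the other 13 gland libraries above it. The log2 fold change was 3.37 (SE 0.50, n = 5, limma adjusted p = 4.72e-06). The salivary label is therefore borne by neither marker in the parotids of baboons 2 and 5. In the sublingual glands of baboons 2 and 4 it is borne by PITX1 but not by AQP5. The highest PITX1 values, 710 and 271 TPM, came from sublingual glands that also held 115223 and 50595 TPM of oral mucosa markers. The part of mucosa in PITX1 was not tested.

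ALB, which encodes serum albumin, stood at 34684, 31060, 38464, 31506 and 14278 TPM in the livers. The gland libraries lay between 55.9 and 572 TPM with a median of 170, far below every liver. APOA1, the main protein of high-density lipoprotein, stood at 10869, 9311, 14102, 8893 and 16081 TPM in the livers and between 20.1 and 145 TPM in the glands. The log2 fold changes were -7.54 (SE 0.46) for ALB and -7.86 (SE 0.48) for APOA1, each lower in glands in 5 of 5 animals (limma adjusted p = 1.49e-12 for each).

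Several gland libraries held other cell types, and these move with some results below. Summed over 7 adipocyte markers, the parotid of baboon 2 reached 22350 TPM and the submandibular glands of baboons 5 and 2 reached 7222 and 2842 TPM, against 30.9 to 70.9 TPM in livers. Fibroblast markers (6 genes) reached 5437 TPM in the parotid and 5180 TPM in the submandibular gland of baboon 2, against 21.0 to 83.3 TPM in livers. The sublingual gland of baboon 2 held 97095 TPM of 7 skeletal muscle markers. The sublingual glands of baboons 1 and 4 held 115223 and 50595 TPM of 6 stratified oral mucosa markers, and the parotid of baboon 5 held 1343 TPM of 9 B and T lymphocyte markers. Livers ranged from 7.81 to 733 TPM for the muscle list, from 4.46 to 635 TPM for the mucosa list and from 17.9 to 27.5 TPM for the lymphocyte list. In these 5 lists 4 of 7 adipocyte, 4 of 6 fibroblast, 2 of 7 muscle, 1 of 6 mucosa and 0 of 9 lymphocyte markers were called higher in glands (1 of the 9 by unadjusted p in limma), and none was listed at 0 in all livers. Among all genes tested 8.09% were called higher, so in lists this short 1 of 6 and 0 of 9 are near the overall share. In bulk tissue, fewer cells of a type and less RNA per cell cannot be told apart.

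The 6 hepatocyte markers summed to 79530 to 96126 TPM in livers and to 199 to 1382 TPM in glands, and none was listed at 0 in any gland library. The 6 pancreatic acinar markers summed to 114 to 1830 TPM in glands and to 564 to 1055 TPM in livers. In single libraries the 10 most abundant genes took 16.2% to 87.7% of all transcripts in glands and 23.4% to 35.9% in livers. Since TPM is a share, a library with such dominant genes leaves less room for every other gene. Of 9 salivary marker genes in the acinar and duct lists, 3 of 5 acinar and 3 of 4 duct markers were called higher, while the acinar marker ANO1 was called lower.

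**Figure D2:**
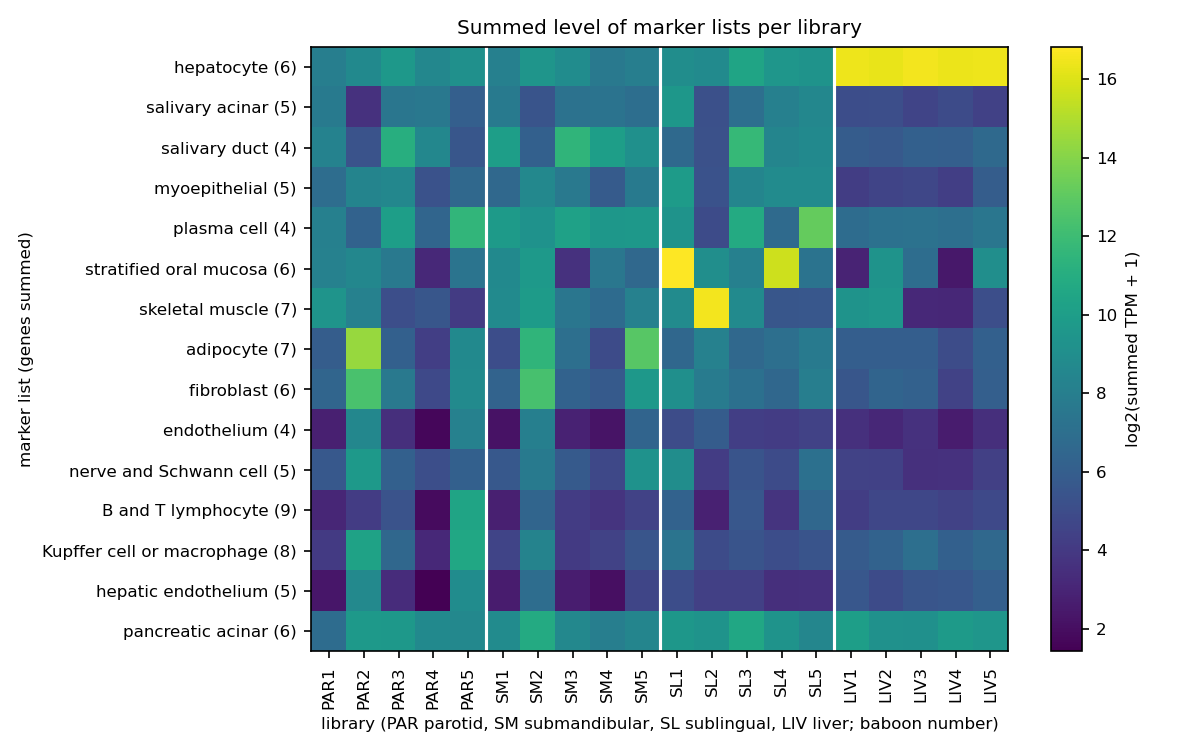
Summed level of 15 marker lists as log2(summed TPM + 1), shown by colour, in each of 20 libraries (columns) with the number of genes summed in brackets. The hepatocyte row separates the 5 livers from the glands, while adipocyte, muscle and mucosa lists are bright in single gland libraries such as PAR2 (22350 TPM), SL2 (97095 TPM) and SL1 (115223 TPM).

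Transcription factors divided by tissue. Of 27 tested factors known from salivary and oral epithelium, 19 were called higher in glands and 0 lower, with a list median log2 fold change of 1.38. Of 16 tested hepatocyte factors, 16 were called lower and 0 higher, with a median of -3.60. For 12 of these 16 all livers lay above all glands, whereas all glands lay above all livers for 1 of the 27 salivary factors.

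HNF4A, a nuclear receptor central to the hepatocyte network, stood at 48.9, 46.6, 23.8, 47.1 and 26.3 TPM in livers. No gland library exceeded 0.668 TPM, and the log2 fold change was -4.81. The nuclear receptor NR0B2, which represses bile acid synthesis, averaged 62.4 ± 19.5 TPM (SD, n = 5) in livers and 0.313 TPM over the glands (log2 fold change -5.55, SE 0.39). CREB3L3, a membrane-bound factor of lipid metabolism, was lower by a log2 fold change of -5.47 (SE 0.41), and NR1I3, a xenobiotic receptor, by -5.38 (SE 0.42). All 3 were lower in 5 of 5 animals, with limma adjusted p of 4.03e-12, 1.13e-11 and 2.35e-11.

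Among the salivary factors, BARX2 stood at 25.5, 1.24, 46.3, 18.3 and 1.38 TPM in parotids, 22.1, 3.11, 20.4, 15 and 15.2 TPM in submandibular glands and 118, 25.1, 22.9, 62.6 and 31.2 TPM in sublingual glands. Livers held 1.10, 1.56, 1.62, 1.54 and 2.58 TPM. The parotids of baboons 2 and 5 were again at the liver level, and all other gland libraries were above every liver. The highest BARX2 values were those of the sublingual glands of baboons 1 and 4, which held high oral mucosa markers. The part of mucosa in BARX2 was not tested. The log2 fold changes were 2.81 (SE 0.43) for BARX2 and 2.78 (SE 0.41) for FOXC1, a forkhead factor, with limma adjusted p of 8.00e-06 and 4.42e-06. SOX10, a factor of acinar and myoepithelial cells and of Schwann cells, was higher by 2.44 (SE 0.40). It is also 1 of 5 nerve and Schwann cell markers, of which 4 were called higher; these 5 summed to 16.8 to 834 TPM in glands and to 10.9 to 21.4 TPM in livers, and the part of nerve in SOX10 was not tested. BHLHA15, which shapes secretory cells, was higher by 2.43 (SE 0.43).

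Gland by gland, BHLHA15 differed from liver by 3.17 in the parotid and 2.99 in the submandibular gland (limma adjusted p = 0.00374 and 0.00222) and by 1.14 in the sublingual gland (adjusted p = 0.215). Differences between glands were not tested as such.

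The fluid-secretion apparatus was mostly on the gland side. Of 16 tested genes for water and ion transport, 10 were called higher and 2 lower, with a median log2 fold change of 1.43. The shares among all genes tested were 8.09% higher and 13.6% lower, so 2 lower calls in 16 are near the overall share. After TMM scaling 8 were called higher and 1 lower, and without baboon 3 these counts were 7 and 1. AQP1, the water channel of capillaries and, in some glands, of myoepithelium, stood at 45.8, 270, 64.2, 46.6 and 36.2 TPM in parotids and 82.8, 237, 47.3, 50.5 and 86.9 TPM in submandibular glands. In sublingual glands it stood at 55.1, 79.8, 27.2, 14.5 and 199 TPM, and in livers at 4.74, 11.1, 6.52, 3.50 and 5.59 TPM. No gland library overlapped with a liver. The log2 fold change was 3.29 (SE 0.43, limma adjusted p = 7.55e-07), and it was 3.45 without 5 gland libraries rich in adipose, lymphoid, muscle or fibroblast transcripts (parotid and submandibular gland of baboons 2 and 5, sublingual gland of baboon 2), which leaves 4 animals.

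KCNN4, the calcium-activated potassium channel that keeps acinar secretion going, was higher by 2.55 (SE 0.42). SCNN1B, a subunit of the ductal sodium channel, was higher by 2.17 (SE 0.33), and ATP6V1B1, a proton pump subunit of acid-base transporting duct cells, by 2.11 (SE 0.40). These 3 were higher with limma adjusted p of 2.59e-05, 7.27e-06 and 1.67e-04. SLC12A2, the basolateral chloride loader of acini, had a difference of 0.62 (SE 0.29) and CFTR, a chloride channel of ducts, of 0.56 (SE 0.25); neither passed the test (limma adjusted p = 0.113 and 0.101). In the submandibular gland alone CFTR was higher by 1.35 (limma adjusted p = 0.0257), with 4 of 5 glands above every liver. CA6 and FXYD2 were called higher with an adjusted p of 0.0407 and 0.0173 in limma, and those calls were lost after TMM scaling, without baboon 3 or 5, and for CA6 also without baboon 1 or 4.

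The 2 genes of this list called lower were SLC13A5 and ANO1. SLC13A5, a citrate transporter with high levels in hepatocytes, stood at 15.6, 30.9, 12.3, 5.31 and 27.0 TPM in livers and at 0.0851 to 4.75 TPM in glands, with no overlap (log2 fold change -3.04, SE 0.42). ANO1, the apical calcium-activated chloride channel of acini, stood at 18.6, 2.78, 24.9, 22.4 and 1.61 TPM in parotids, 19.0, 4.01, 5.56, 11.1 and 6.97 TPM in submandibular glands and 5.05, 2.05, 4.11, 1.12 and 20.7 TPM in sublingual glands. Livers held 23.4, 23.0, 15.4, 19.5 and 8.25 TPM. The ranges overlapped broadly, and the log2 fold change of -1.17 (SE 0.42) only just passed (limma adjusted p = 0.0414). The ANO1 call was lost after TMM scaling (-0.86, adjusted p = 0.135), without the 5 gland libraries (-0.42, adjusted p = 0.538), and without each of baboons 1, 2, 3 and 4 (adjusted p = 0.0857, 0.191, 0.0813 and 0.0765).

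**Figure D3:**
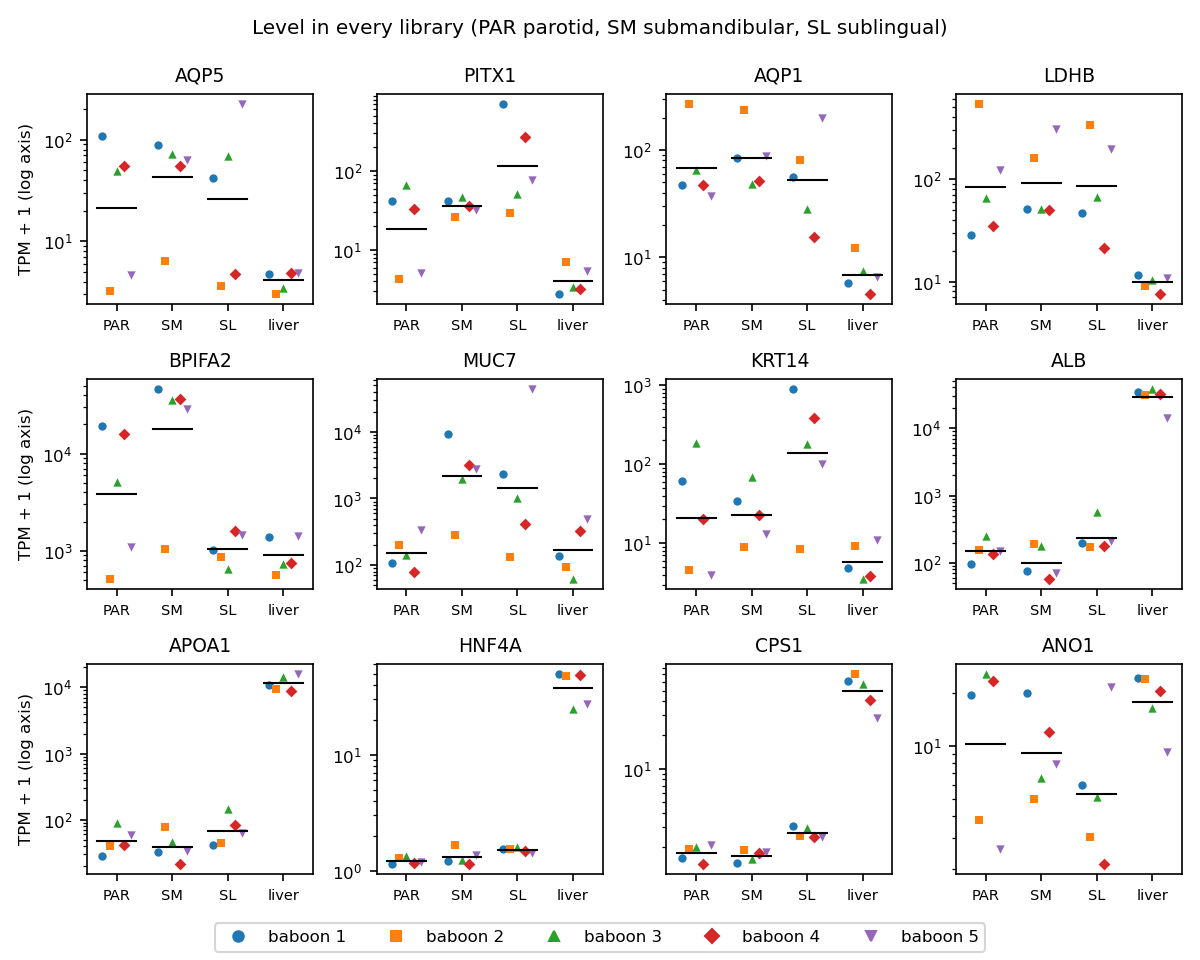
TPM + 1 on a log axis in every library for 12 genes, with a symbol per baboon and a black line at the mean of log2(TPM + 1) of each tissue. AQP1 and LDHB lie above the livers in all 15 gland libraries, ALB, APOA1, HNF4A and CPS1 below them, and ANO1 overlaps.

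Secreted proteins of saliva were on the gland side, with wide spread between libraries. Of 25 tested genes, 19 were called higher and 0 lower, with a median log2 fold change of 1.80, but for none did all glands lie above all livers. Without baboon 3, 12 were called higher: ZG16B, PIP, LYZ, BPIFB1, HTN1, CRISP3 and CA6 lost their calls. With the median of the 3 glands in place of their mean, 12 were called higher as well. BPIFA2, a bactericidal-family protein of saliva, stood at 19382, 507, 5051, 15810 and 1108 TPM in parotids and 46591, 1044, 35896, 36518 and 28937 TPM in submandibular glands. Sublingual glands held 1021, 870, 643, 1598 and 1442 TPM, and livers 1385, 562, 736, 754 and 1414 TPM. In all, 9 of 15 gland libraries exceeded the highest liver, and none of the 3 libraries of baboon 2 did. The log2 fold change was 2.21 (SE 0.50, limma adjusted p = 0.00127), made of 4.30 in the submandibular gland, 2.10 in the parotid and 0.22 in the sublingual gland.

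MUC7, the small salivary mucin, stood at 106, 202, 141, 77.6 and 341 TPM in parotids and at 9327, 283, 1967, 3145 and 2790 TPM in submandibular glands. Sublingual glands held 2326, 133, 1014, 415 and 44550 TPM, and livers 137, 94.2, 59.8, 322 and 485 TPM. All 5 parotids lay below the highest liver, whereas 4 submandibular and 3 sublingual glands lay above it. The difference from liver was -0.12 in the parotid, 3.70 in the submandibular gland and 3.10 in the sublingual gland (limma adjusted p = 0.957, 0.00343 and 0.0622). LPO, the peroxidase of saliva, was higher by 2.71 (SE 0.48) and differed by 2.62, 2.98 and 2.52 in the 3 glands in that order.

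PRR27, a proline-rich secreted protein, was higher by 2.65 (SE 0.53, limma adjusted p = 3.09e-04), and FAM3D, a secreted cytokine-like protein, by 2.53 (SE 0.45, limma adjusted p = 8.08e-05). In the parotid, submandibular and sublingual gland PRR27 differed by 2.97, 4.21 and 0.765 (limma adjusted p = 0.0347, 0.00214 and 0.161). FAM3D differed by 1.65, 1.67 and 4.28 in that order (limma adjusted p = 0.121, 0.0442 and 0.0187). The highest liver was exceeded by 9 of 15 gland libraries for PRR27 and by 11 for FAM3D. KLK1, the tissue kallikrein of striated ducts, was higher by 2.43 (SE 0.57). HTN1, a histatin gene, differed by 3.48, 1.72 and 0.19 in the parotid, submandibular and sublingual gland (limma adjusted p = 0.0415, 0.111 and 0.848). Its call in the mean of 3 glands (adjusted p = 0.0308) was lost without baboon 1, 3 or 4. MUC5B, the large gel-forming mucin, and LTF, or lactoferrin, differed by 0.50 and 0.20 and did not pass (limma adjusted p = 0.201 and 0.659).

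Transcripts of saliva proteins were also listed at high levels in livers. Of 20 secreted genes that reached 100 TPM in a gland library, 19 had a liver mean of at least 1 TPM, 12 of at least 10 TPM and 6 of at least 100 TPM. ZG16B, a lectin-like secreted protein, averaged 1151 ± 728 TPM (SD, n = 5) in livers, BPIFA2 970 ± 399 TPM and PIP 639 ± 366 TPM. A fold change of such a gene is measured from that liver level. The liver means of ZG16B, BPIFA2 and PIP were 0.530%, 2.08% and 1.04% of the highest gland library of the same gene. The source of these transcripts in livers was not tested. In turn, the 47 liver-list genes with a liver mean of at least 100 TPM stood in each gland library at a median of 0.236% to 1.76% of the same animal's liver.

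Of 9 tested genes of secretory IgA, the antibody class of saliva, 2 were called higher: the J chain gene JCHAIN and PIGR, the receptor that carries IgA across the epithelium. Beside these 2 of 9 stand 8.09% higher calls among all genes tested. JCHAIN stood at 252, 64.7, 1030, 60.3 and 2088 TPM in parotids, 835, 574, 1100, 718 and 740 TPM in submandibular glands and 634, 20.3, 1725, 93.9 and 8720 TPM in sublingual glands. Livers held 95.1, 112, 120, 105 and 141 TPM, so all 5 submandibular glands were above and 4 other gland libraries below every liver. The log2 fold change was 2.03 (SE 0.57, limma adjusted p = 0.00784) and 1.53 without baboon 5 (adjusted p = 0.0656). PIGR was higher by 1.55 (SE 0.44, limma adjusted p = 0.00912), and its call was also lost without baboon 5 (1.25, adjusted p = 0.0708). In the parotid alone PIGR differed by -0.04, against 1.86 in the submandibular and 2.83 in the sublingual gland.

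Both tissues are epithelial, and the keratin and junction list lay mainly on the gland side. Of 30 genes tested, 16 were called higher and 3 lower, with a median of 1.17. Among all genes tested, 8.09% were called higher and 13.6% lower, so 3 lower calls in 30 are near the overall share. Without the 5 gland libraries named above, 21 were called higher and 1 lower. KRT5 and KRT14, the keratin pair of basal and myoepithelial cells, were higher by 2.92 (SE 0.61) and 2.81 (SE 0.59), in 4 of 5 animals each (limma adjusted p = 5.03e-04 and 5.32e-04). KRT5 stood at 39.3, 5.83, 79.8, 18.8 and 3.01 TPM in parotids, 41.7, 12.6, 43.1, 25.1 and 16.8 TPM in submandibular glands, 1565, 8.97, 50.1, 350 and 108 TPM in sublingual glands and 1.33, 12.9, 2.07, 1.79 and 11.3 TPM in livers. The highest values are the 2 sublingual glands with high oral mucosa markers, and the 3 libraries of baboon 2 lie below its own liver. The 5 within-animal differences of KRT5 had an SD of 2.71, and both keratin calls were lost when limma let genes of unusual spread keep more of it (adjusted p = 0.132 and 0.0874). The KRT5 call was also lost after TMM scaling (adjusted p = 0.0561).

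CLDN4, a tight junction protein, was higher by 2.67 (SE 0.49), ITGB4, the integrin of hemidesmosomes, by 2.43 (SE 0.38) and PRSS8, an epithelial protease that activates the sodium channel, by 2.59 (SE 0.47); limma adjusted p were 1.15e-04, 1.20e-05 and 9.16e-05. The 3 genes lower in glands were the adhesion molecule CDH1 (E-cadherin), the tight junction gene CLDN3 and the splicing regulator ESRP2. CDH1 stood at 35.9, 28.4, 14, 25.7 and 7.76 TPM in livers and between 0.388 and 33.6 TPM in glands with a median of 3.40, and 11 of 15 gland libraries lay below the lowest liver. The log2 fold changes were -2.03 (SE 0.45) for CDH1, -2.01 (SE 0.50) for CLDN3 and -2.16 (SE 0.44) for ESRP2, in 5 of 5 animals each (limma adjusted p = 0.00106, 0.00277 and 3.59e-04). Without the 5 gland libraries named above, CDH1 stood at -1.31 (adjusted p = 0.0597), CLDN3 at -0.92 (adjusted p = 0.221) and ESRP2 at -1.34 (adjusted p = 0.0396).

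Contractile genes shared by myoepithelium and smooth muscle were higher: 8 of 10 tested were called higher and 0 lower, with a median of 1.58. Without baboon 2, 4 were called higher, and TAGLN, DES, LMOD1 and SYNM lost their calls. The sublingual gland of that animal held 97095 TPM of skeletal muscle markers. Its parotid and submandibular gland held 5437 and 5180 TPM of fibroblast markers. ACTA2 stood at 27.7 TPM in that sublingual gland and at 269 and 334 TPM in that parotid and submandibular gland. The part of skeletal muscle or of other cell types was not tested. With the median of the 3 glands, 5 were called higher. MYH11, a smooth muscle myosin, stood at 9.97, 30.5, 20.1, 3.67 and 12 TPM in parotids, 7.93, 21.0, 17.6, 5.41 and 36.8 TPM in submandibular glands and 2.96 to 25.4 TPM in sublingual glands. Livers held 1.29 to 1.97 TPM, below every gland library. The log2 fold changes were 2.25 (SE 0.37) for MYH11, 2.32 (SE 0.38) for CNN1, or calponin, and 2.08 (SE 0.47) for ACTA2, or smooth muscle actin, in 5 of 5 animals each (limma adjusted p = 2.54e-05, 1.93e-05 and 0.00121). Vessel walls hold these transcripts too; markers of endothelium (4 genes) summed to 2.24 to 372 TPM in glands and to 5.10 to 11.3 TPM in livers, and the part of vessels was not tested.

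Receptors for the nerve and nucleotide signals that start secretion went in both directions. Of 9 tested, 1 was called higher and 4 lower, with a median of -0.38. Over all genes tested, 8.09% were called higher and 13.6% lower, so 1 higher call in 9 is near the overall share. Without the 5 gland libraries named above, 3 were called higher and 4 lower, and the median turned to 0.17. ADRB1, the beta-adrenergic receptor that drives protein release, averaged 2.24 TPM in glands and 0.261 ± 0.121 TPM (SD, n = 5) in livers and was higher by 1.03 (SE 0.28, limma adjusted p = 0.00734). Its fold fell under the minimum without baboon 1 (0.96), baboon 3 (0.84) or baboon 4 (0.93). The muscarinic receptors CHRM1 and CHRM3 differed by 0.87 and 0.64 and passed on p (limma adjusted p = 0.0164 and 0.0425) but not on fold. Without the 5 gland libraries both passed, at 1.37 and 1.07 (limma adjusted p = 0.0150 and 0.0120).

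P2RY2, a nucleotide receptor, stood at 22.8, 36.1, 18.5, 18.2 and 20.6 TPM in livers, at no more than 2.75 TPM in parotids and submandibular glands, and at 29.8, 23.1, 1.19, 14.2 and 2.58 TPM in sublingual glands. Its log2 fold change was -2.79 (SE 0.39, limma adjusted p = 2.07e-06). In the sublingual gland alone P2RY2 differed by -1.27 and did not pass (limma adjusted p = 0.174). The 3 high sublingual values are those of the libraries with high oral mucosa or skeletal muscle markers. P2RX4, an ATP-gated channel, was lower by -1.71 (SE 0.45), and the adrenergic receptor ADRA1A by -2.24 (SE 0.35), with limma adjusted p of 0.00527 and 1.37e-05. P2RX4 was lower in 4 of 5 animals. In the parotid alone P2RX4 differed by -0.895 and did not pass (limma adjusted p = 0.448).

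Proteins that the liver exports to plasma gave the largest differences. All 16 tested apolipoprotein and lipoprotein assembly genes were called lower in glands, with a median log2 fold change of -6.71. So were 24 of 24 plasma carriers and inhibitors (median -6.88), 20 of 20 coagulation and fibrinolysis genes (median -6.35), 11 of 11 acute phase and iron genes (median -6.79) and 16 of 17 complement genes (median -5.79). All livers lay above all glands for 15, 22, 19, 11 and 11 members of these lists in that order.

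APOC3 and APOC2, which regulate lipoprotein lipase, were lower by -7.67 (SE 0.48) and -7.59 (SE 0.49). ORM1, an acid glycoprotein of the acute phase, was lower by -7.65 (SE 0.50) and VTN, or vitronectin, by -7.46 (SE 0.48). FGA, the fibrinogen alpha chain, stood at 2559, 4019, 2328, 1961 and 616 TPM in livers and at 4.52 to 45.2 TPM in glands (log2 fold change -7.21, SE 0.50). Every one of these 5 genes was lower in 5 of 5 animals. The liver of baboon 5 was the lowest of the 5 for both FGA and ALB.

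In the complement list C8G, a subunit of the membrane attack complex, was lower by -7.10 (SE 0.45), and MBL2, mannose-binding lectin, by -6.86 (SE 0.44). MBL2 stood at 314, 316, 336, 271 and 121 TPM in livers and at no more than 5.80 TPM in glands. HAMP, or hepcidin, which limits iron release into blood, stood at 432, 3974, 4914, 1104 and 2979 TPM in livers and at 3.62 to 58.4 TPM in glands. Livers differed more among themselves in HAMP than in MBL2, yet no gland library reached the lowest liver (log2 fold change -7.17, SE 0.52). CCL16, a chemokine of hepatocytes, averaged 1953 ± 139 TPM (SD, n = 5) in livers and 10.2 TPM in glands (log2 fold change -7.72, SE 0.49).

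Metabolic lists were lower as well. Called lower were 24 of 25 genes of amino acid catabolism (median -5.13), 17 of 17 of conjugation and oxidation (median -4.94), 9 of 10 of the urea cycle (median -4.60), 14 of 14 of glucose and fructose metabolism (median -4.18) and 14 of 18 of ketone and fatty acid oxidation (median -2.06). Of bile acid synthesis and hepatic transport, 16 of 17 were lower (median -4.54) and 1, ATP8B1, was higher. CYP2C8 was the 1 member of the cytochrome P450 list that was tested; the other 21 are not analysed here.

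AGXT, which clears glyoxylate, was lower by -7.57 (SE 0.47). CYP2C8, a drug-metabolising oxidase, stood at 992, 1158, 1030, 756 and 390 TPM in livers and at 0.846 to 18.0 TPM in glands (log2 fold change -7.04, SE 0.47). SULT2A1, which sulfates steroids and bile acids, was lower by -7.16 (SE 0.47), and G6PC, which releases free glucose, by -5.97 (SE 0.44). These 4 genes were lower in 5 of 5 animals and remained called under every alternative run.

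In the urea cycle, CPS1, which fixes ammonia, stood at 60.1, 69.8, 55.6, 39.7 and 27.4 TPM in livers and at no more than 2.07 TPM in glands (log2 fold change -4.63). ASS1, which joins citrulline and aspartate, was lower by -5.66 (SE 0.47). ARG1, the arginase of the cycle, stood at 352, 396, 625, 327 and 230 TPM in livers, at no more than 7.40 TPM in parotids and submandibular glands, and at 765, 5.04, 8.72, 948 and 7.53 TPM in sublingual glands. The sublingual glands of baboons 1 and 4 thus exceeded every liver. Those are the libraries with 115223 and 50595 TPM of oral mucosa markers, and the part of these cells was not tested. ARG1 was lower by -5.09 (SE 0.51) in the mean of 3 glands and differed by -2.83 in the sublingual gland alone, where it did not pass (limma adjusted p = 0.179). ARG2, the mitochondrial arginase, was the 1 urea cycle gene not called lower, with a difference of 0.89 (adjusted p = 0.0548).

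ATP8B1, a phospholipid flippase, averaged 3.87 TPM in glands and 0.776 ± 0.178 TPM (SD, n = 5) in livers and was higher by 1.11 (SE 0.30, limma adjusted p = 0.00591), in 5 of 5 animals. Without baboon 4 its log2 fold change was 0.96, under the minimum. In fatty acid oxidation, FABP1, the hepatic fatty acid carrier, was lower by -6.50 (SE 0.48).

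**Figure D4:**
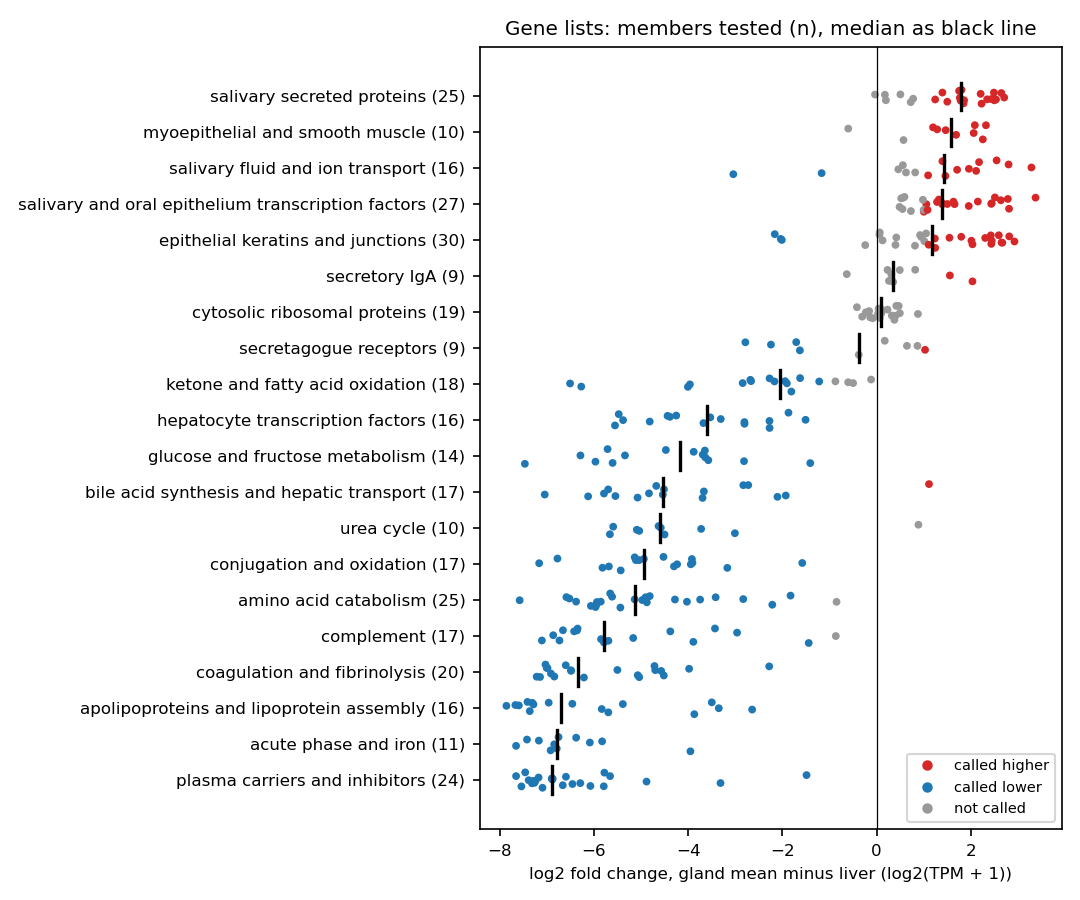
Log2 fold change of each tested member of 20 gene lists (points, coloured by call) with the list median as a black line and the number tested in brackets. Liver lists centre between -6.88 and -2.06, the salivary, keratin and contractile lists between 1.17 and 1.80, and cytosolic ribosomal proteins at 0.10. Secretory IgA centres at 0.35 and secretagogue receptors at -0.38.

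Genes used by most cells gave a reference for the mean of the 3 glands. Of 19 tested cytosolic ribosomal protein genes, 0 were called in either direction in limma and 0 had an unadjusted p under 0.05, with a median of 0.10 and a range of -0.42 to 0.88. After TMM scaling 1 of them was called higher in limma. Gland by gland their median was 0.078 in the parotid, -0.088 in the submandibular and 0.488 in the sublingual gland. The TMM factors, by which libraries were divided, ranged from 0.325 to 2.37 in gland libraries and from 1.00 to 1.23 in livers. Levels of single libraries are given in the text as TPM without this scaling.

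Among called genes that averaged at least 10 TPM in the higher tissue and went the same way in 5 animals, several of the largest gland differences lay outside the lists. CRYAB, a small heat shock protein, was higher by 3.63 (SE 0.52), BACE2, an aspartyl protease, by 3.51 (SE 0.47), and CD44, a receptor for hyaluronan, by 3.40 (SE 0.42). CD44 stood at 5.16 to 130 TPM in glands with a median of 60.4 and at 2.95 to 4.92 TPM in livers, without overlap. CRYAB was highest in the parotid and sublingual gland of baboon 2 (7118 and 2497 TPM), libraries with high adipocyte or skeletal muscle markers, and GSN, an actin-severing protein, was highest in the parotid and submandibular gland of baboon 2 (2776 and 2629 TPM). Without the 5 gland libraries, CRYAB remained higher by 3.48 and GSN by 2.47.

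LDHB, a subunit of lactate dehydrogenase, stood at 27.6, 544, 63.7, 33.9 and 121 TPM in parotids, 49.7, 161, 50.1, 48.5 and 307 TPM in submandibular glands and 46.1, 339, 65.6, 20.2 and 197 TPM in sublingual glands. Livers held 10.7, 8.10, 9.42, 6.48 and 9.93 TPM, below every gland library. LDHB was higher by 3.15 (SE 0.50, limma adjusted p = 1.36e-05), and by 2.67 without the 5 gland libraries. PKM, the pyruvate kinase of most non-hepatic tissues, stood at 25.3 to 683 TPM in glands and 6.02 to 17.1 TPM in livers and was higher by 2.78 (SE 0.46). S100A1, a calcium-binding protein, CD9, a tetraspanin, and APOD, a lipocalin made outside the liver, were higher by 3.16 (SE 0.49), 2.56 (SE 0.47) and 3.05 (SE 0.50), each with all 15 gland libraries above all livers.

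PPP1R1B, a phosphatase inhibitor, and TMED3, a cargo receptor of early secretion, were higher by 3.18 (SE 0.45) and 3.11 (SE 0.47), with overlap in 2 and 1 of 15 gland libraries. On the other side APOA2, F12, APCS and ITIH4 had wide gaps between livers and glands, with log2 fold changes of -7.36 (SE 0.46), -6.91 (SE 0.45), -7.17 (SE 0.48) and -7.09 (SE 0.48). They encode a lipoprotein component, the contact factor of coagulation, serum amyloid P and an inhibitor chain of plasma.

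Taking 1 gland at a time, all 5 parotids lay above all 5 livers for 445 genes and below for 1167. For the submandibular gland these counts were 606 and 1721, and for the sublingual gland 872 and 1380. By limma with the gland alone, 318 genes were called higher and 1192 lower in the parotid, 559 and 1813 in the submandibular gland, and 659 and 1345 in the sublingual gland. Each gland was set against the same 5 livers, so the 3 comparisons share them. Of 27 salivary factors, 4 were called higher in the parotid alone, 15 in the submandibular gland and 11 in the sublingual gland. Of 25 secreted protein genes, 3, 14 and 3 were called higher in these glands. Of 16 fluid and ion transport genes, the counts were 6, 10 and 2, and of 30 keratin and junction genes 2, 10 and 10. Of 10 contractile genes they were 2, 5 and 4. Beside these stand 318, 559 and 659 higher calls among all 14867 genes tested, so the overall call rate also differed by gland. Differences between glands in the list counts were not tested.

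**Figure D5:**
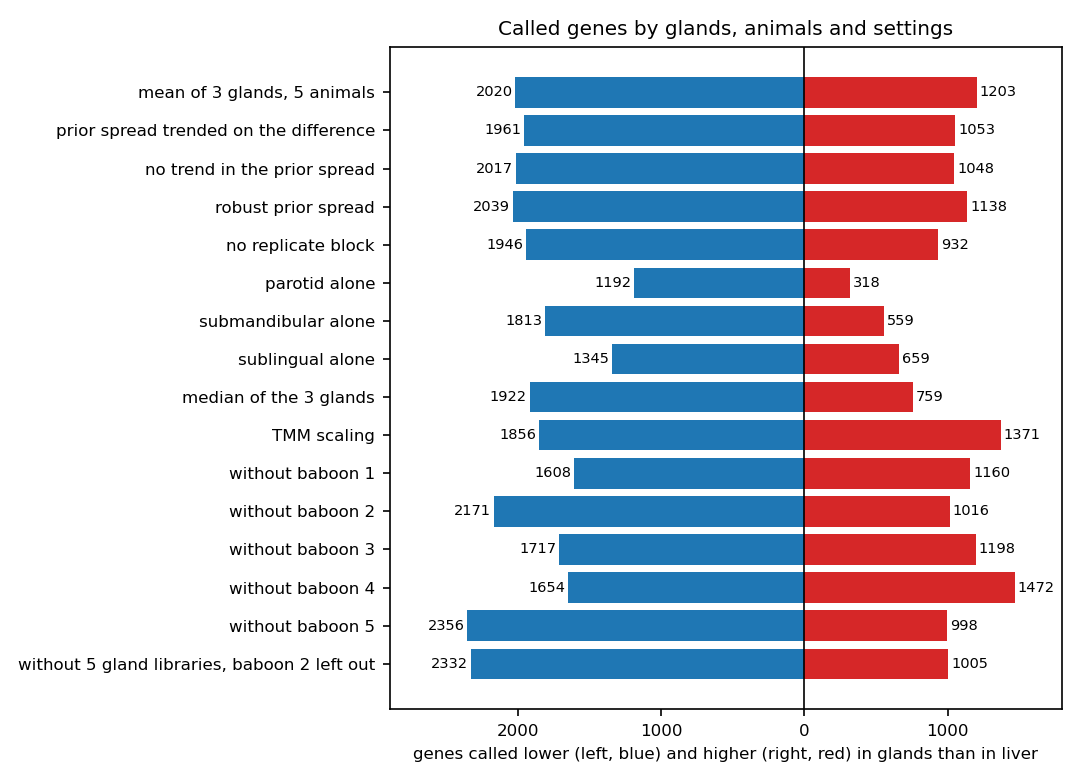
Genes called lower (blue, to the left) and higher (red, to the right) in glands than in liver, by gland, by animal left out and by setting. Lower calls outnumber higher calls in every bar, from 1192 against 318 for the parotid alone to 1654 against 1472 without baboon 4.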

How the data were processed

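Total RNA of each flash-frozen tissue was sequenced as paired-end reads of 150 bases, per the labels' protocols. The deposited table holds TPM per gene for 25 libraries. The submitters' processing notes list FastQC, MultiQC, cutadapt, HISAT2, kallisto, SAMtools, featureCounts and DESeq2 without roles or versions; the genome build is not given in the sources used here. TPM keeps no read depth (columns sum to 999999.5 to 1000000.3), so no counting error is given.

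From the deposited TPM, genes averaging 1 TPM or more in at least 1 of the 4 tissues were kept, and limma 3.58.1 (R 4.3.3) was fitted to 5 within-animal differences of log2(TPM + 1), gland mean minus liver, with Benjamini-Hochberg adjustment. The tissues come from the same animals, per the labels; the correlation of gland and liver deviations within an animal was 0.0617 to 0.252, and its own liver was the best match for 1 of 5 animals (baboon 2).

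The prior spread in limma was first trended on the mean difference, the default for such input. That covariate is the effect itself, so it was replaced, after those results had been seen, by the mean log2 level, which raised the higher calls from 1053 to 1203. For genes at least 1 higher in glands, the median SE was 0.420 in the first version, 0.379 in the version reported and 0.427 from each gene's own spread. Single genes moved more. From its own spread the SE was 0.664 for AQP5 and 0.779 for PITX1, against 0.464 and 0.497 reported. For ALB and APOA1 it was 0.296 and 0.202, against 0.465 and 0.476 reported. A fit without a trend and a robust fit were run as well, 4 versions in all; the closing section gives their counts. The prior weighs as 24.2 degrees of freedom in the version reported and from 2.62 to infinite in the alternatives, so adjusted p-values depend on it. On simulated data for 14867 genes, 61 of 100 genes changed by a log2 fold of 2 and 96 of 100 changed by 4 were recovered, with 8 false calls. Far more genes, 3223, were called in the measured data. Whether the recovery and the false calls carry over to the measured data was not tested.

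Members and lists were chosen with earlier results of these data known. Genes named are the 4 tissue markers, the 10 highest and 10 lowest called fold changes averaging 10 TPM or more on the higher side and 1 direction in 5 animals, the 5 widest gaps between libraries in each direction, and of each list the 3 largest called changes and any called against the majority; other list members are named as examples, chosen after their values were seen. Placeholder symbols (LOC and digits) were left out; 143 of the higher and 353 of the lower calls carry one. A planned description of promoter motifs was not made, and no sequence is printed. Fits without the 5 gland libraries named in the text, and the versions of the prior, were added after seeing the data. Other fits left out 4 of these 5 (submandibular gland of baboon 2 kept), or these 4 and the sublingual glands of baboons 1 and 4. Some genes that the naming rule picks are not reported here.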

Additional observations from a re-analysis of the deposited data

Results flagged for a closer look

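Of the 77 genes that the naming rule picks, 4 are not reported here and were not checked. Among the other 73, 2 had 1 animal set apart from the other 4 in the difference between gland mean and liver, by Dixon's test at 95%; chance flags about 1 in 20 such groups. NR1I3 differed by -4.43 in baboon 2 and by -5.82 to -5.46 in the others. OTC, the urea cycle carbamoyltransferase, differed by -4.36 in baboon 5 and by -6.12 to -5.70 in the others. For OTC the liver of baboon 5 stood low, at 30.1 TPM against 88.7 to 108 TPM. For NR1I3 the sublingual gland of baboon 2 stood high, at 8.27 TPM.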

How the results depend on the processing

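Against 1203 higher and 2020 lower genes, limma gave 1053 and 1961 with the prior spread trended on the difference, 1048 and 2017 without a trend, and 1138 and 2039 with a robust prior; 1030 of the higher and 1906 of the lower calls were shared with the first of these. Without the replicate block the counts were 932 and 1946, and of the 77 genes the naming rule picks only JCHAIN lost its call (adjusted p = 0.0546). Of other genes named as called, HTN1 (adjusted p = 0.131), CA6 (0.0634), FXYD2 (0.147), ZG16B (0.220), PIP (0.107), BPIFB1 (0.0823), CRISP3 (0.147), DES (0.343), LMOD1 (0.0696), ALDOC (0.135) and KRT8 (0.0560) lost theirs. So did PFKP and PFKM (limma adjusted p = 0.0548 and 0.108). Leaving out 1 animal gave 998 to 1472 higher and 1608 to 2356 lower genes. Higher counts moved by over 1.5 times with all 25 libraries in the fit (754), with the 20 gland and liver libraries in the fit (620), with no filter (598), with the median of glands (759), for the parotid (318), submandibular (559) and sublingual gland (659) alone, without 6 gland libraries (746), and at a log2 fold change of at least 2 (226). Lower counts did so for the parotid (1192) and sublingual gland (1345) alone and at a log2 fold change of at least 2 (1023). The cause of these shifts was not tested, except that a higher fold minimum allows fewer genes. Genes with all glands above all livers numbered 455 after TMM scaling and 357 without 5 gland libraries, with which 1507 had all livers above; fewer libraries make this easier. TMM scaling turned the share of higher among all calls from 37.3% to 42.5%. Of the 29 named higher genes, 19 to 29 stayed called in each alternative, and of the 48 lower ones 42 to 48. The direction of 1 named gene reversed: PIGR in the parotid alone (-0.036, adjusted p = 0.984). Read depth is unknown, so the lowest levels carry an unknown counting error.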

Other observations

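Liver forms of enzymes and transporters, and their counterparts, were counted in lists chosen after these values were seen, beside 8.09% higher and 13.6% lower calls over all genes tested. Of 12 liver-type isozymes and transporters, 9 were called lower in glands and 0 higher, with a median log2 fold change of -3.79; PFKL, LDHA and CPT1A did not pass. Of 12 counterparts, 6 were called higher and 1, ALDOC, lower, a call lost after TMM scaling and without baboon 1, 3 or 4, with a median of 0.97. Among the 6 higher calls, that of PFKP was lost without baboon 2 or 5. PFKM exceeded every liver in 5 of 15 gland libraries, with a gland median of 5.38 TPM and a highest value of 434 TPM. The pyruvate kinase PKLR differed by -3.64 (SE 0.40) where PKM differed by 2.78, and the hexokinase HK1 differed by 2.30 (SE 0.39). The glycogen phosphorylase PYGL differed by -2.81 (SE 0.43) and PYGB by 2.16 (SE 0.38). HK1, PKM and LDHB were above all livers in 15 of 15 gland libraries.

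Hormones and growth factor carriers that the liver releases were counted in another list chosen after its values were seen: 16 of 16 were called lower in glands, against 13.6% of all genes tested, with a median of -5.87. AGT, angiotensinogen, differed by -7.27 (SE 0.48), IGF1 by -3.40 (SE 0.47), FGF21 by -5.47 (SE 0.45) and the sex hormone carrier SHBG by -5.92 (SE 0.44). The keratin pair of simple epithelia, KRT8 and KRT18, was lower in glands by -1.45 (SE 0.50) and -1.53 (SE 0.49), each in 4 of 5 animals (limma adjusted p = 0.0302 and 0.0202). Both calls were lost after TMM scaling (adjusted p = 0.135 and 0.131) and without baboon 2, KRT8's also without baboon 1 and KRT18's without baboon 5.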
